A study of Homo sapiens with 54 samples.

Results

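Maf1 regions that appeared with hormone and lay on the progesterone receptor (PR) made up 16461 of the 22638 Maf1 regions listed on chromosomes 1 to 22 and X in T47D cells after R5020. A region was taken when it shared no base with any Maf1 region of vehicle-treated cells and at least 1 bp with an R5020 PR region. These 16461 regions are called members here. The other R5020 Maf1 regions fell into 3560 hormone-only regions without PR, 2172 regions with PR that were already present before hormone, and 445 present before hormone without PR. The members were thus selected on the absence of Maf1 with vehicle and on Maf1 and PR after R5020. Over all R5020 Maf1 regions, 88.4% had no vehicle Maf1 region and 82.3% had PR, and neither share is read as a result. The number of members was 3860 when PR and Maf1 had to cover 50% of each other, and 6764 when the R5020 PR list was cut to its top 6662 regions, the length of the vehicle list.

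T47D is an established human breast cancer line, labelled ER+PR+, and all samples came from this 1 line. Cells received ethanol vehicle or R5020, a synthetic progestin, for 1 h, with nothing else differing between the groups in the labels. Chromatin immunoprecipitation sequencing (ChIP-seq) used antibodies to PR, Maf1, Brf1, acetylated lysine 27 of histone H3 (H3K27Ac) and the polymerase subunits POLR3A, POLR3C, POLR3G and POLR3GL, with 3 libraries per antibody and treatment. The authors deposited 1 region list per antibody and treatment, so no value here has a replicate error and no p-value is given. The lists hold no reads, so sequencing depth is unknown, and a region missing from a list is not shown to be empty. Shares carry 95% Wilson intervals and differences of shares 95% Newcombe intervals, which cover counting error of regions only, and neighbouring regions are not independent. As a check of the label, all 14 listed luminal breast genes, among them ESR1, PGR, FOXA1 and GATA3, held a vehicle H3K27Ac region, against 74.3% of all protein-coding genes. Of 4 basal genes 2 did, with 39 such regions against 173 at the 14 luminal genes, and the keratin genes KRT5 and KRT14 did not. The basal genes were thus mixed.

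PR is a nuclear receptor that binds DNA after progestin reaches it and recruits coactivators, many of which acetylate histones. Maf1 is a repressor of RNA polymerase III (Pol III), the enzyme that makes tRNAs and other short RNAs. It acts by binding the polymerase and Brf1, the TFIIIB subunit that brings Pol III to tRNA genes, and POLR3A is the largest subunit of that enzyme. H3K27Ac marks active promoters and enhancers. The series title places Maf1 and PR together at tRNA genes, and the question followed below is what kind of sites the members were.

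Sequences of 7 promoters that hold the summit of a member are shown as examples of members on strong and on weaker PR. For 5 of them the choice required a PR region in the strongest decile of the PR list and the core of a progesterone response element, written ACANNNTGT and printed in capitals. Such a core was present in a minority of the promoters with strong PR, as counted below, so the 5 are not typical. The other 2 are those of highest Maf1 −log10 q among protein-coding promoters with PR below the ninth decile and the summit well inside the upstream stretch, taken without regard to the core, and neither window held one. Each line gives 101 bases upstream of a start site, 5′ to 3′ on the gene's own strand, from RefSeq promoter windows of GRCh38.p14.
NET1: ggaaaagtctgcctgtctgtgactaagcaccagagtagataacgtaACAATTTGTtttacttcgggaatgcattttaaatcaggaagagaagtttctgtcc
ACOT6: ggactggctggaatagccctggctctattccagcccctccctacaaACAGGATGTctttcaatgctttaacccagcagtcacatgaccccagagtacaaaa
RCAN1: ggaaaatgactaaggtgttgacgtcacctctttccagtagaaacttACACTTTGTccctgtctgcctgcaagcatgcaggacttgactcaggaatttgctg
TACC2: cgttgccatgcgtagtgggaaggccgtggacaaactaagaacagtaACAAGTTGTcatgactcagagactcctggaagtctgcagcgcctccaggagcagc
ACOT7: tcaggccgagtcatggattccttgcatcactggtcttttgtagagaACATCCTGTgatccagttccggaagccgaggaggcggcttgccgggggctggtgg
STX16: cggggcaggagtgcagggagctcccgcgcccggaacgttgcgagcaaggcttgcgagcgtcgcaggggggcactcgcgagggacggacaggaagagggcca
METTL2B: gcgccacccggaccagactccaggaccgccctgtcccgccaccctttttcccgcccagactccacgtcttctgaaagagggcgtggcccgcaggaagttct

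The stretch at NET1, which encodes a guanine nucleotide exchange factor, is chr10:5446341-5446441 (+ strand). The middle of its core lay 5 bp from the Maf1 summit. Its Maf1 fold enrichment, the authors' ratio of signal to background at the summit, was 20.5, and its PR fold was 37.7. The acyl-CoA thioesterase gene ACOT6 (chr14:73610814-73610914, + strand) had a Maf1 fold of 16.5, a PR fold of 34.3 and 71 bp between core and summit. RCAN1, a calcineurin inhibitor gene (chr21:34526921-34527021, - strand), had folds of 12.3 for Maf1 and 49.5 for PR and 56 bp. The values at TACC2, a gene for a centrosome-associated protein (chr10:122112690-122112790, + strand), were 12.6, 49.5 and 60 bp. At ACOT7, another thioesterase gene (chr1:6385822-6385922, - strand), they were 7.89, 49.7 and 29 bp. The stretches at STX16, a syntaxin gene (chr20:58651122-58651222, + strand), and METTL2B, a tRNA methyltransferase gene (chr7:128476627-128476727, + strand), were centred on the Maf1 summit. Their Maf1 folds were 9.08 and 9.08, and their PR folds were 7.87 and 8.41. The STX16 and METTL2B stretches were 72.3% and 66.3% G and C, against 39.6% to 58.4% in the 5 stretches with the core. All 7 promoters had H3K27Ac regions in both treatments.

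Most members sat on the strongest PR regions. Ranked by fold, the R5020 PR list was divided into 10 equal parts, the deciles. The members were chosen for having PR but not for its fold, and the folds come from the list that the choice used, so they are given as a description. The strongest PR region at a member had a median fold of 29.5 (range 1.58 to 56.6), and its median percentile in the PR list was 94.0. Of the members, 10251 (62.3%) lay on a PR region of the top decile, with a fold of 22.2 or more, 1472 (8.94%) on the ninth decile and 4738 (28.8%) on deciles 1 to 8. Over all R5020 Maf1 regions, 47.5% (10764) lay on the top decile. That share counts regions without PR, which have no decile, and 18633 regions had PR. Of the regions with PR present before hormone, 23.6% lay on the top decile. At the Maf1 regions with PR that were present before hormone, the median PR fold was 7.47.

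Counted from the PR side, 15526 of 173115 PR regions held a member, 8.97% of the list. In the top decile 9449 of 17311 did (54.6%, 53.8 to 55.3%). In the ninth decile the share was 7.91%, and in deciles 1 to 8 it lay between 2.87% and 5.16%, with the highest of these in the lowest decile. Newly listed Maf1 was thus common on the strong PR regions and sparse on the weak ones. Most PR regions with a member had 1 of them (14502), 944 had 2 and 80 had 3 or more. Across members, Maf1 fold and PR fold had a Spearman correlation of 0.59 over all 16461, of 0.58 over the 10251 in the top PR decile and of 0.0686 over the 4738 on deciles 1 to 8. These points share the same libraries and many share neighbouring chromatin, so no p-value is given.

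**Figure D1:**
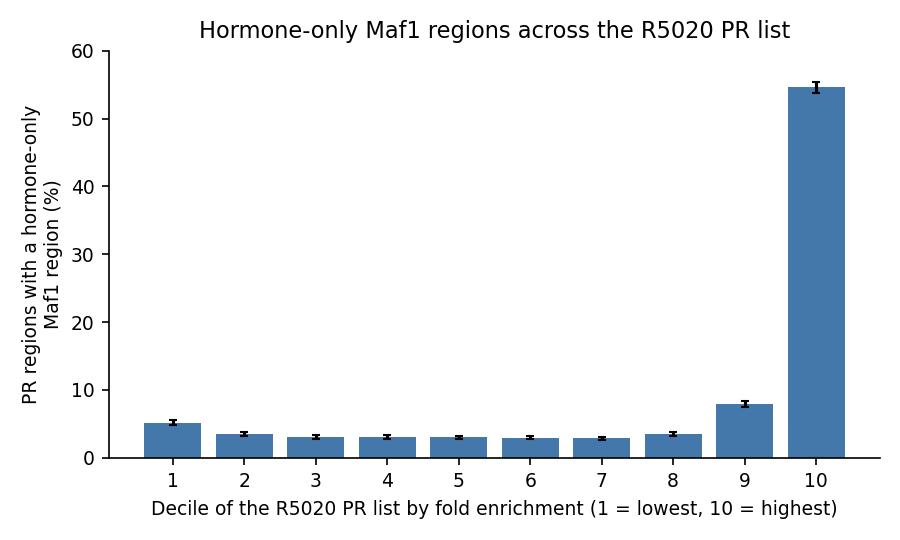
Share of R5020 PR regions that held a hormone-only Maf1 region (y axis, percent) in each decile of the PR list by fold enrichment (x axis); bars are shares and lines are 95% Wilson intervals. The top decile stands at 54.6%, the ninth at 7.91%, and the other 8 between 2.87% and 5.16%.

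Maf1 enrichment at the members was modest for most and high for a few. Their Maf1 folds ran from 1.85 to 41.5 with a median of 4.41, against medians of 3.33 at hormone-only regions without PR and 5.87 at the regions with PR present before hormone. The median width was 273 bp, and 13757 members (83.6%) lay wholly inside 1 PR region. On the top PR decile the median Maf1 fold was 5.13, and on deciles 1 to 8 it was 3.80. The authors' q, a p-value adjusted for the number of tests, sets the limit of each list, and members near it were a region in NBPF10 on chromosome 1 (146126984 to 146127321, Maf1 −log10 q 1.31) and 1 on chromosome 14 at 37865207 to 37865380 (1.36). At the limit of sharing, 3 members shared only 1, 3 and 3 bp with PR, while 3 hormone-only regions just outside the choice abutted a PR region with no shared base. There were 110 members that shared under 50 bp with PR and 141 hormone-only regions without PR that lay within 100 bp of it.

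The place of a member in the genome differed with the strength of its PR region. Distances to start sites used the RefSeq promoter windows of protein-coding genes, and 851 members on chromosome 8 were not used here. Of 15610 members, 4225 (27.1%, 26.4 to 27.8%) had their summit within 1 kb of a start site, against 28.9% of all R5020 Maf1 regions. On the top PR decile this was 955 of 9724 (9.82%), and on deciles 1 to 8 it was 2875 of 4530 (63.5%), a difference of 53.6 points (52.1 to 55.1). The median distance to a start site was 30282.5 bp for the first and 252 bp for the second. A count that needs no promoter window, that of regions at most 1 kb from where a protein-coding gene begins or ends, gave 12.1% and 69.8%, and 30.6% for all members against 34.5% of all R5020 Maf1 regions. Of the members, 9666 (58.7%) had their summit inside a protein-coding gene, against 55.9% of all R5020 Maf1 regions. With the PR list cut to 6662 regions the share at gene ends was 10.2%.

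The summits of Maf1 and PR also lay closer together where PR was strong. The median gap was 24 bp on the top decile, where 7668 of 10251 members (74.8%) had both summits within 50 bp. On deciles 1 to 8 it was 114 bp, and 1312 of 4738 (27.7%) had both within 50 bp. The gap rose from 81 bp in the lowest decile to 184 bp in the eighth decile, then fell to 64 bp in the ninth. PR regions of the top decile were also wider, with a median of 891 bp at these members against 526.5 bp on deciles 1 to 8. The part of region width in the gap was not tested.

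**Figure D2:**
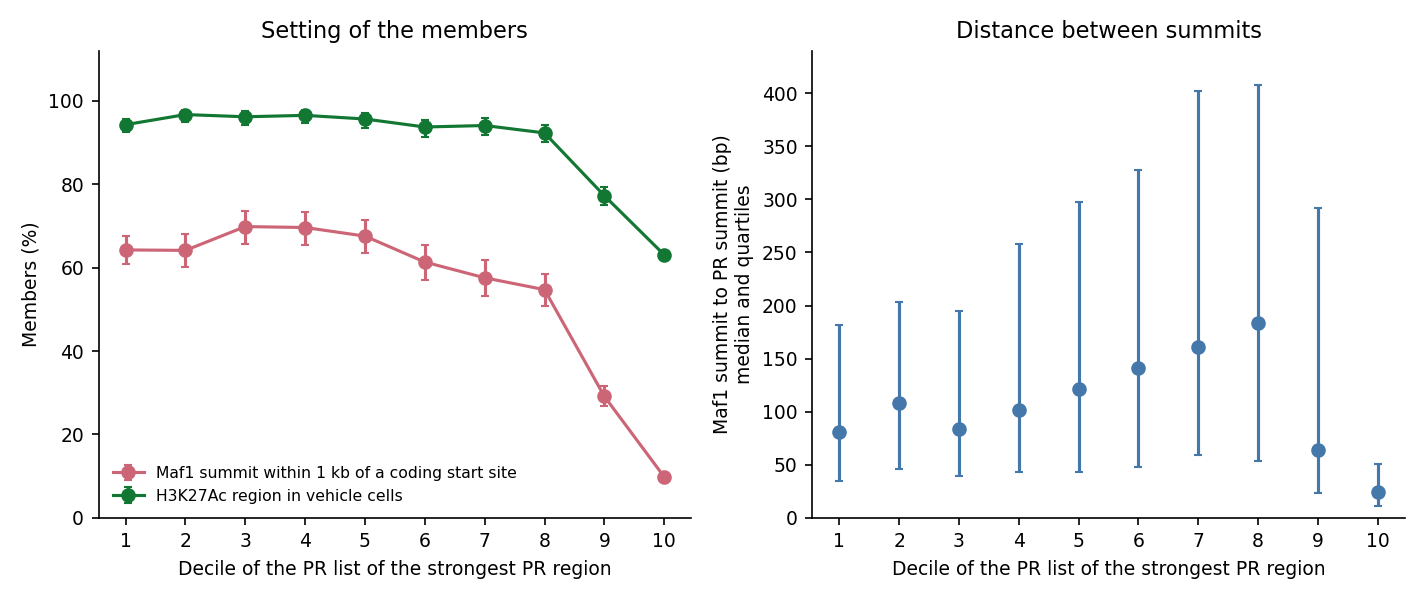
Members by the decile of the PR list of their strongest PR region (x axes). The left panel shows the share with a Maf1 summit within 1 kb of a coding start site and with a vehicle H3K27Ac region (percent, lines are 95% Wilson intervals), which end at 9.82% and 63.1% in the top decile; the right panel shows the distance between Maf1 and PR summits in bp (points are medians, lines are quartiles), lowest at 24 bp in the top decile.

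Most members, like most R5020 Maf1 regions, lay in chromatin that was acetylated before hormone. An H3K27Ac region of vehicle cells overlapped 12095 of 16461 members (73.5%, 72.8 to 74.1%), against 71.0% of all R5020 Maf1 regions. The share was 44.1% at hormone-only regions without PR and 97.0% at the regions with PR present before hormone, which put the members at -23.5 points from these (-24.5 to -22.5). With R5020 13218 members overlapped H3K27Ac (80.3%, 79.7 to 80.9%), against 76.6% of all R5020 Maf1 regions. At hormone-only regions without PR it was 48.6%, which put the members 31.7 points higher (29.9 to 33.4). This difference was 20.7 points with Maf1 −log10 q of at least 5, 19.7 with 50% of both regions shared, and 6.44 with the PR list cut to 6662 regions. Newly listed Maf1 thus lay on acetylated chromatin more often with PR than without, by a margin that depended strongly on the PR list used. It did so less often than Maf1 with PR that was there before. The 445 regions present before hormone without PR had H3K27Ac at 65.6% with vehicle and 63.8% with R5020.

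By state, 11666 members (70.9%) had H3K27Ac in both treatments, 2814 (17.1%) in neither, 1552 (9.43%) with R5020 alone and 429 (2.61%) with vehicle alone. Over all R5020 Maf1 regions these shares, in the same order, were 68.4%, 20.8%, 8.24% and 2.60%. Among the 4366 members with no vehicle H3K27Ac region, 1552 had one after R5020 (35.5%, 34.1 to 37.0%), against 28.4% of all such R5020 Maf1 regions. Of 1990 hormone-only regions without PR and without vehicle H3K27Ac, 280 did (14.1%, 12.6 to 15.7%), a difference of 21.5 points (19.3 to 23.5). The R5020 H3K27Ac list was longer than the vehicle list, 112542 against 88869 regions, and its part in this difference was not tested. Members were also wider (273 against 209 bp) and had higher Maf1 folds than the regions without PR. Among regions with a Maf1 fold of 3 to 4.5 the difference was 10.1 points (7.20 to 12.9), and counted only at the Maf1 summit base it was 11.3 points (9.49 to 13.0). The direction held and the size was smaller by both counts.

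Of members with vehicle H3K27Ac, 3.55% had no R5020 H3K27Ac region, close to the 3.66% of all R5020 Maf1 regions, against 7.58% of hormone-only regions without PR (difference -4.03 points, -5.48 to -2.78). Within the members, the PR decile separated the states. On deciles 1 to 8, 94.8% had vehicle H3K27Ac and 1.27% had it with R5020 alone. On the top decile these were 63.1% and 13.6%. Of the unacetylated members, 1391 of 3786 (36.7%) acquired an H3K27Ac region on the top decile and 60 of 245 (24.5%) on deciles 1 to 8, a difference of -12.3 points for the weaker deciles (-17.5 to -6.30). Among those with a Maf1 fold of 3 to 4.5 the shares were 25.4% and 22.4%, and the interval of the difference included 0 (-9.16 to 4.55 points). The contrast in vehicle acetylation was also present over 1 kb from any start site, where 59.7% of members on the top decile and 87.6% on deciles 1 to 8 had vehicle H3K27Ac.

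**Figure D3:**
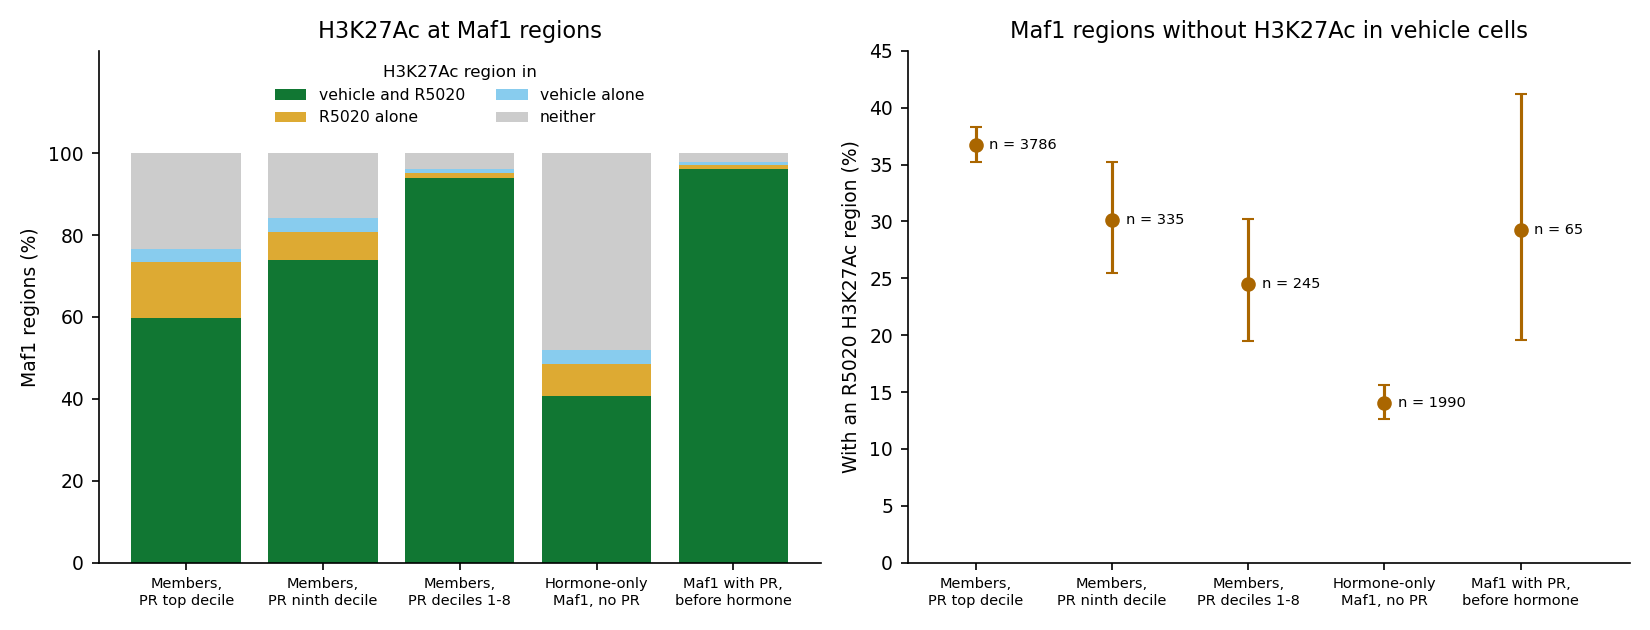
H3K27Ac at 5 classes of R5020 Maf1 regions. The left panel stacks the percent of regions with an H3K27Ac region in both treatments, R5020 alone, vehicle alone or neither; the right panel gives, for regions without vehicle H3K27Ac, the percent with an R5020 H3K27Ac region (points, 95% Wilson intervals, n beside each point), from 36.7% on the top PR decile to 14.1% without PR.

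Strong PR regions with and without Maf1 were then compared, which holds the class of PR region fixed. Of the 17311 PR regions in the top decile, 9449 held a member, 7493 had no R5020 Maf1 region and 369 had another Maf1 region. A vehicle H3K27Ac region overlapped 66.6% of those with a member and 33.7% of those without Maf1, a difference of 32.8 points (31.4 to 34.2). Where vehicle H3K27Ac was missing, R5020 H3K27Ac was found at 1619 of 3160 (51.2%) with a member and at 1041 of 4965 (21.0%) without Maf1, a difference of 30.3 points (28.2 to 32.3). Vehicle H3K27Ac was lost from the R5020 list at 2.42% and 11.0%. PR regions with a member were stronger and wider within the same decile, with median folds of 37.4 and 26.9 and median widths of 854 and 568 bp. Between PR folds of 30 and 40 the difference in new H3K27Ac was 24.6 points (21.0 to 28.2) and that in vehicle H3K27Ac 30.0 points (27.4 to 32.6). At the PR summit base alone, new H3K27Ac was found at 22.7% and 9.90%, a difference of 12.8 points (11.4 to 14.3). The strong PR sites that acquired Maf1 were thus those more often acetylated, before and after hormone, by each of these counts.

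Motifs were searched in promoter windows only, since no genome sequence was used here. Each window runs from 250 bases before to 50 after a start site, none on chromosome 8, and both strands were searched. Windows holding the summit of a member numbered 3290. The core ACANNNTGT stood in 42 of 545 windows on the top PR decile (7.71%, 5.75 to 10.3%) and in 34 of 2454 on deciles 1 to 8 (1.39%, 0.993 to 1.93%), against 5.36% of all 34961 windows. The difference was 6.32 points (4.29 to 8.90), and 10.6 points with 50% of both regions shared. It was 5 of 505 (0.990%) at hormone-only regions without PR and 82 of 3290 (2.49%) over all members, a difference of 1.50 points (0.111 to 2.32) that turned to -1.13 points when PR and Maf1 had to share 50% of each other. Base composition differed as well: the windows were 62.7% G and C on the top decile, 68.6% on deciles 1 to 8 and 57.6% overall. Among windows of 60 to 65% G and C the core was found in 6 of 85 (7.06%) on the top decile, 14 of 430 (3.26%) on deciles 1 to 8 and 3.05% of all windows, with intervals that overlapped (3.28 to 14.6% and 1.95 to 5.39%).

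Where the core was present, it lay nearer the Maf1 summit under strong PR. The median distance was 28 bp over 42 windows on the top decile, 18 of them within 20 bp, and 113 bp over 34 windows on deciles 1 to 8, 4 of them within 20 bp. In these windows the AP-1 motif TGANTCA, bound by Fos and Jun proteins, was found in 9.17% on the top decile and 2.93% on deciles 1 to 8 (difference 6.24 points, 3.97 to 9.02), against 7.68% of all windows. For the forkhead motif TGTTTAC, read by FOXA1 among others, the shares were 3.85% and 1.51%, against 3.42% of all windows. The GATA motif AGATAA was found in 5.14% and 2.32%, against 10.3% of all windows. The short element GNACA stood in 82.9% and 73.0%, against 81.0%, and can overlap the core. For the nuclear receptor element AGGTCA (10.1% and 8.35%, against 13.8%) and the tRNA B box sequence GGTTCGA (1.47% and 0.937%, against 0.864%) the interval of the difference between the deciles included 0. Windows on the top decile held less G and C than those on deciles 1 to 8, as given above. The motifs other than the core were not counted at like composition, so its part in their differences was not tested. A match is a string of letters in a window and not a measured binding site.

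The strongest members were distal, acetylated in both treatments and, like nearly all members, without POLR3A. Of all members, 0.504% overlapped R5020 POLR3A and 70.9% had H3K27Ac in both treatments. Of those off chromosome 8, 27.1% had their summit within 1 kb of a start site. The 10 with the highest Maf1 −log10 q all had a PR region of fold 25.5 or more with its summit within 51 bp of the Maf1 summit. All 10 overlapped H3K27Ac with vehicle and R5020, none overlapped POLR3A, and 8 overlapped an R5020 Brf1 region where no vehicle Brf1 region was listed. The first lay in DERA, a deoxyribose-phosphate aldolase gene on chromosome 12 (15936686 to 15937159), with a Maf1 fold of 41.5, a PR fold of 53.2 and a Brf1 fold of 7.17. The fourth, on chromosome 6 (34462472 to 34462964), lay 3111 bp from PACSIN1, a gene for an endocytosis adaptor, with folds of 34.4 for Maf1, 44.4 for PR and 7.89 for Brf1. On chromosome 9 (110188889 to 110189588) the fifth, 9972 bp from C9orf152, had folds of 36.5, 38.8 and 5.99. The sixth, 3838 bp from the calmodulin-like gene CALML5 on chromosome 10 (5503409 to 5503983), had folds of 30.8, 38.0 and 5.71. That on chromosome 4 (88320576 to 88321261), in the noncoding gene PPM1K-DT, had the highest PR fold of the 10, 56.6, with Maf1 at 38.9, summits 1 bp apart and no Brf1 region. The others lay in ACSS1, ZNRF1, LINC01588 and MCCC1 and 6981 bp from TUBD1, with Maf1 folds of 21.5 to 40.8.

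Brf1 was listed at few members, and the R5020-only Brf1 regions gathered at the strongest. An R5020 Brf1 region overlapped 246 members (1.49%, 1.32 to 1.69%), against 2.33% of all R5020 Maf1 regions, 3.17% of hormone-only regions without PR and 6.49% of those with PR present before hormone. The members' share was 2.56% with 50% of both regions shared. A vehicle Brf1 region was present at 69 of the 246 (28.0%), close to the 28.8% of all 527 R5020 Maf1 regions with R5020 Brf1. No R5020 POLR3A region was listed at 170 of the 246, against 320 of the 527. When the members were divided into deciles by their own Maf1 fold, Brf1 was found at 100 of 1646 in the highest decile (6.08%, 5.02 to 7.33%) and at 0.668% to 1.34% in the other 9. Of those 100, 2 had vehicle Brf1 and 96 had no POLR3A. Among the 100 members of highest Maf1 −log10 q, 47 had Brf1 with R5020 and 0 with vehicle, which with 100 regions allows a share of up to 3.00%. No R5020 or vehicle POLR3A, POLR3C or POLR3GL region overlapped any of these 100, and each of these lists overlapped only 0.134% to 1.00% of all members. POLR3G overlapped 57 with vehicle and 94 with R5020, against 42.3% and 43.4% of all members. H3K27Ac overlapped 97 and 100, against 73.5% and 80.3%, and vehicle PR 46, against 17.8%. The R5020 Brf1 list was longer than the vehicle list, 1157 against 370 regions, and its part in the Brf1 counts was not tested.

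New H3K27Ac followed the Maf1 fold too. Among members without vehicle H3K27Ac, an R5020 H3K27Ac region was found at 235 of 325 (72.3%, 67.2 to 76.9%) in the highest Maf1 decile, at 52.2% in the ninth, and at 20.9% to 40.9% in the 8 below. The share on the top PR decile moved in parallel, from 27.5% in the lowest Maf1 decile to 99.0% in the highest, and the share at start sites fell from 37.1% to 5.24%. Maf1 strength, PR strength and position cannot be told apart in these counts.

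**Figure D4:**
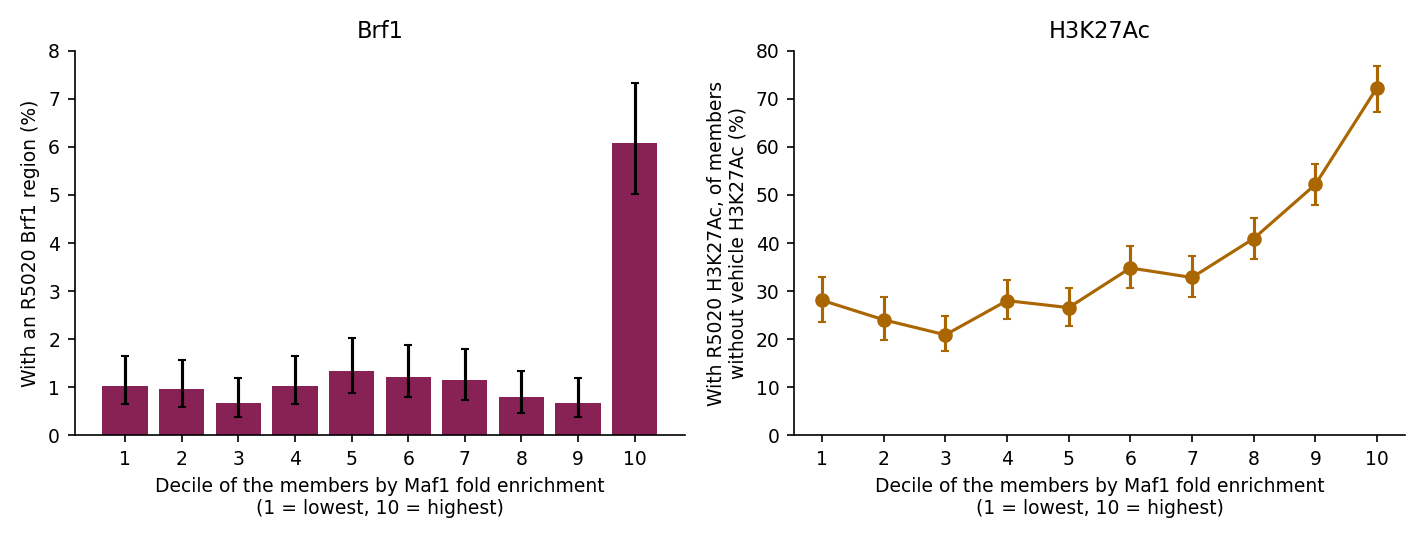
Members by decile of their own Maf1 fold (x axes). The left panel shows the percent with an R5020 Brf1 region (bars, 95% Wilson intervals), 6.08% in the highest decile; the right panel shows the percent with R5020 H3K27Ac among members without vehicle H3K27Ac (points, 95% Wilson intervals), reaching 72.3% in the highest decile.

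POLR3A was rare at the members and was there before the hormone. An R5020 POLR3A region overlapped 83 of 16461 members (0.504%, 0.407 to 0.625%), against 1.18% of all R5020 Maf1 regions. The share was 3.65% at hormone-only regions without PR, from which the members differed by -3.15 points (-3.82 to -2.57), and 1.15% at regions with PR present before hormone. With 50% of both regions shared the members' share was 0.803%, and with the PR list cut to 6662 regions it was 0.251%. A vehicle POLR3A region was also present at 79 of the 83 (95.2%), against 62.8% of all R5020 Maf1 regions with R5020 POLR3A. At the POLR3A-bearing hormone-only regions without PR it was 38.5%, a difference of 56.7 points (45.7 to 65.2). At those with PR present before hormone it was 23 of 25 (92.0%). From these the members differed by 3.18 points, with an interval that included 0 (-5.84 to 20.4). Brf1 overlapped 76 of the 83, and 46 lay within 200 bp of a tRNA gene. By PR, POLR3A overlapped 1.16% of members on deciles 1 to 8 and 0.215% on the top decile, a difference of 0.946 points (0.657 to 1.30). At the members with POLR3A, PR was thus mostly below the ninth decile. POLR3A was mostly listed in both treatments there, as it was at regions with PR present before hormone. Of 130 hormone-only regions without PR that had R5020 POLR3A, 50 had it with vehicle.

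At tRNA genes, 49 of 422 (11.6%, 8.90 to 15.0%) had a member within 200 bp. Another 30 had a hormone-only Maf1 region without PR, and 13 had one with PR that was present before hormone. All 49 had POLR3A in both treatments, R5020 Brf1 and vehicle H3K27Ac within 200 bp, and 4 had vehicle PR. These traits were not particular to the members. All 13 genes with PR present before hormone had the same 4, and 5 of the 13 had vehicle PR. All 30 with a hormone-only region without PR had POLR3A in both treatments and R5020 Brf1, and 28 had vehicle H3K27Ac. Shares over all 422 tRNA genes are not given here. The 46 members at tRNA genes had a median Maf1 fold of 4.13 and a median PR fold of 5.55, with 7 of them on the top PR decile. The highest Maf1 folds were 6.35 at the lysine tRNA gene TRK-TTT3-2 (chromosome 1, 204506919 to 204507203, PR fold 35.6), 6.24 at the phenylalanine gene TRF-GAA1-4 (PR fold 35.4) and 6.12 at the isoleucine gene TRI-TAT2-1 (PR fold 5.05). The next were 5.55 at the histidine gene TRH-GTG1-8 (PR fold 4.92) and 5.40 at the asparagine gene TRN-GTT2-7 (PR fold 13.7). By amino acid, arginine had 7 of the 49 genes, proline and serine 5 each and lysine 4. The number of genes per amino acid among the 422 is not given here, so these counts are not read as a preference. Of the 5 tRNA genes named above, the lysine and phenylalanine genes lay on strong PR, and the rest on PR below the top decile.

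The members with the strongest POLR3A carried moderate Maf1. In the R5020 POLR3A list, 7 members tied at a POLR3A fold of 71.4. One PR region of fold 8.49 on chromosome 2 held 2 of them, inside AGBL5, a carboxypeptidase gene, at the tRNA genes TRY-GTA2-1 (Maf1 fold 2.84) and TRA-AGC8-1 (3.77). The others were at TRI-TAT2-1 (6.12), at the start of SACM1L, a phosphoinositide phosphatase gene, beside TRR-ACG2-1 (5.33), and at TRI-AAT5-1 (5.33), TRR-CCG1-3 (4.34) and TRL-CAG2-2 (3.95). The next lay at TRL-CAG1-7, in the uncharacterised gene LOC107986583 on chromosome 6 (26520590 to 26521051), with a POLR3A fold of 70.6, a Maf1 fold of 3.75 and a PR fold of 23.0. The strongest Brf1 folds at members were 91.0 at TRR-CCG1-3, 89.4 at TRL-CAG2-2, 88.4 at TRC-GCA2-4 and 88.1 at a pair of regions at TRH-GTG1-8 and TRH-GTG1-9 in SHF. At the 8 distal members above with Brf1, the folds in the same list lay between 3.73 and 7.89.

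POLR3G, an alternative to the subunit POLR3GL in the enzyme, was widely listed. With vehicle it overlapped 6955 members (42.3%, 41.5 to 43.0%), against 47.2% of all R5020 Maf1 regions. The difference from hormone-only regions without PR (41.9%) was 0.341 points, with an interval that included 0 (-1.45 to 2.12), while 89.6% of the regions with PR present before hormone had it. On PR deciles 1 to 8 vehicle POLR3G overlapped 77.7% and on the top decile 24.7% of members. With R5020 these became 65.1% and 32.6%, in a list of 46874 regions against 58423 with vehicle. Thus R5020 POLR3G regions were found at more of the strong PR sites and fewer of the weak ones than vehicle regions were. POLR3C overlapped 150 members with vehicle (0.911%) and 165 with R5020 (1.00%), against 1.46% and 1.53% of all R5020 Maf1 regions. POLR3GL overlapped 22 (0.134%) and 28 (0.170%), against 0.309% and 0.331%. In these 3 sets, 4 libraries titled R5020 carry an ethanol treatment tag (replicate 1 of each subunit and also replicate 2 of POLR3C), so their R5020 values rest on the titles.

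PR was already listed with vehicle at a minority of the members. A vehicle PR region overlapped 2932 members (17.8%, 17.2 to 18.4%), against 19.9% of all R5020 Maf1 regions. It was 2.02% at hormone-only regions without PR and 67.4% at the Maf1 regions with PR present before hormone, from which the members differed by -49.5 points (-51.6 to -47.5). Within the members the share was 24.6% on PR deciles 1 to 8, 22.3% on the ninth and 14.0% on the top decile. Of the top-decile PR regions, 15.9% with a member and 1.77% without Maf1 had vehicle PR, a difference of 14.2 points (13.4 to 15.0). Strong PR sites that acquired Maf1 were therefore also those at which PR was more often listed before R5020. They were also stronger and wider after R5020, with median PR folds of 37.4 against 26.9 and median widths of 854 against 568 bp. Vehicle PR was not compared at like PR fold, so the part of PR strength and width in this difference was not tested.

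Members near known hormone-responsive and luminal genes were counted within 10 kb of each gene's span. Of 19974 protein-coding genes, 8878 had one (44.4%). Among 23 progestin and steroid targets 13 did, among 10 growth and cell cycle genes 9, among 14 luminal receptors and factors 11, among 6 mammary mediators 1, and among 25 genes of the Pol III machinery 14. Every gene of the 5 lists had an R5020 PR region within 10 kb, but so did 18091 of all 19974 protein-coding genes. Longer genes have more room for a region: the median span was 42.0 kb for the growth list, 12.6 kb for the progestin targets, 27.8 kb for the Pol III genes and 24.2 kb for all coding genes, so the shares were not compared further.

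Of the progestin and steroid targets, ZBTB16, a zinc finger repressor gene, had 5 members. All 5 lay on the top PR decile and all 5 had H3K27Ac with R5020 alone. The strongest (chromosome 11, 114179127 to 114179723, inside the gene) had a Maf1 fold of 32.2, a PR fold of 44.4 and an R5020 Brf1 region. FKBP5, which encodes a co-chaperone of steroid receptors, had 12 members, 10 on the top decile and 2 with H3K27Ac after R5020 alone, and its strongest (chromosome 6, 35725644 to 35726301) had folds of 11.4 for Maf1 and 34.5 for PR. KLF9, a Krüppel-like factor gene, had 3 (strongest 11.7 and 53.1). NFKBIA, the NF-kappa-B inhibitor, had 2 (8.45 and 27.8), HSD11B2, which inactivates cortisol, 4 (7.07 and 44.7), and CDKN1A, the p21 cell cycle inhibitor, 2, the stronger 156 bp from its start site (6.64 and 28.5). Lower folds were found at PER1, a clock gene (4.34 and 17.9), KLF4 (4.32 and 3.08) and TSC22D3, which encodes GILZ (3.16 and 29.9). The 10 without a member included SGK1, DUSP1, F3 and ELF5, each with an R5020 PR region within 10 kb, as most coding genes had.

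Among growth genes, IGF1R, the insulin-like growth factor receptor, had 30 members, 29 of them on the top PR decile and 2 with new H3K27Ac. Its strongest (chromosome 15, 98865908 to 98866477) had a Maf1 fold of 31.6 and a PR fold of 56.4. BCL2L1, which encodes the survival protein BCL-xL, had 13, the strongest outside its span on chromosome 20 (31663827 to 31664592) with folds of 23.8 and 31.1. The neighbours STAT5A and STAT5B, transcription factors of prolactin signalling, shared a member with folds of 7.72 and 49.3. EGFR (3.70 and 32.2), CCND1, the cyclin D1 gene (3.46 and 3.14), and STAT3 (2.93 and 34.6) had 1 each, and HBEGF had none. Of the mammary mediators, AREG, the epidermal growth factor family ligand amphiregulin, had 1, 57 bp from its start site (4.11 and 32.6), while WNT4 and TNFSF11, which encodes RANKL, had none.

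The luminal list covered receptors and the factors that keep luminal identity. ESR1, the estrogen receptor gene, had 11 members, all on the top PR decile, the strongest at folds of 8.49 and 48.3 (chromosome 6, 151682984 to 151683320). GRHL2, an epithelial transcription factor gene, had 20, 15 on the top decile, with a strongest Maf1 fold of 16.5. Values at the strongest members of GATA3 (8.92 and 29.9), TFAP2A (8.72 and 48.1), XBP1 (7.30 and 44.7), SPDEF (6.54 and 33.1) and FOXA1 (5.86 and 40.7) were in a like range. At ELF3 the member lay 31 bp from the start site with folds of 5.44 and 10.2. PGR itself, the PR gene, had no member and 7 vehicle Maf1 regions. NR3C1, the glucocorticoid receptor gene, had neither a member nor a vehicle Maf1 region.

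The Pol III genes carried members of both kinds. GTF3C4, a TFIIIC subunit gene, had 3, the strongest at folds of 15.6 for Maf1 and 51.3 for PR, with H3K27Ac after R5020 alone. GTF3C6 had 1 (10.7 and 56.1), 6137 bp from its start site. POLR3A had 3 (7.48 and 36.5), the strongest 60257 bp from its start site, and POLR3B 1, 31 bp from its start (3.85 and 18.5). POLR1D, shared by Pol I and Pol III, had 2, the stronger 57 bp from its start site (4.34 and 2.80), and BRF1 had 3 (4.40 and 20.8). MAF1 had none and 4 vehicle Maf1 regions, and GTF3C1, TBP and POLR3K had none.

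**Figure D5:**
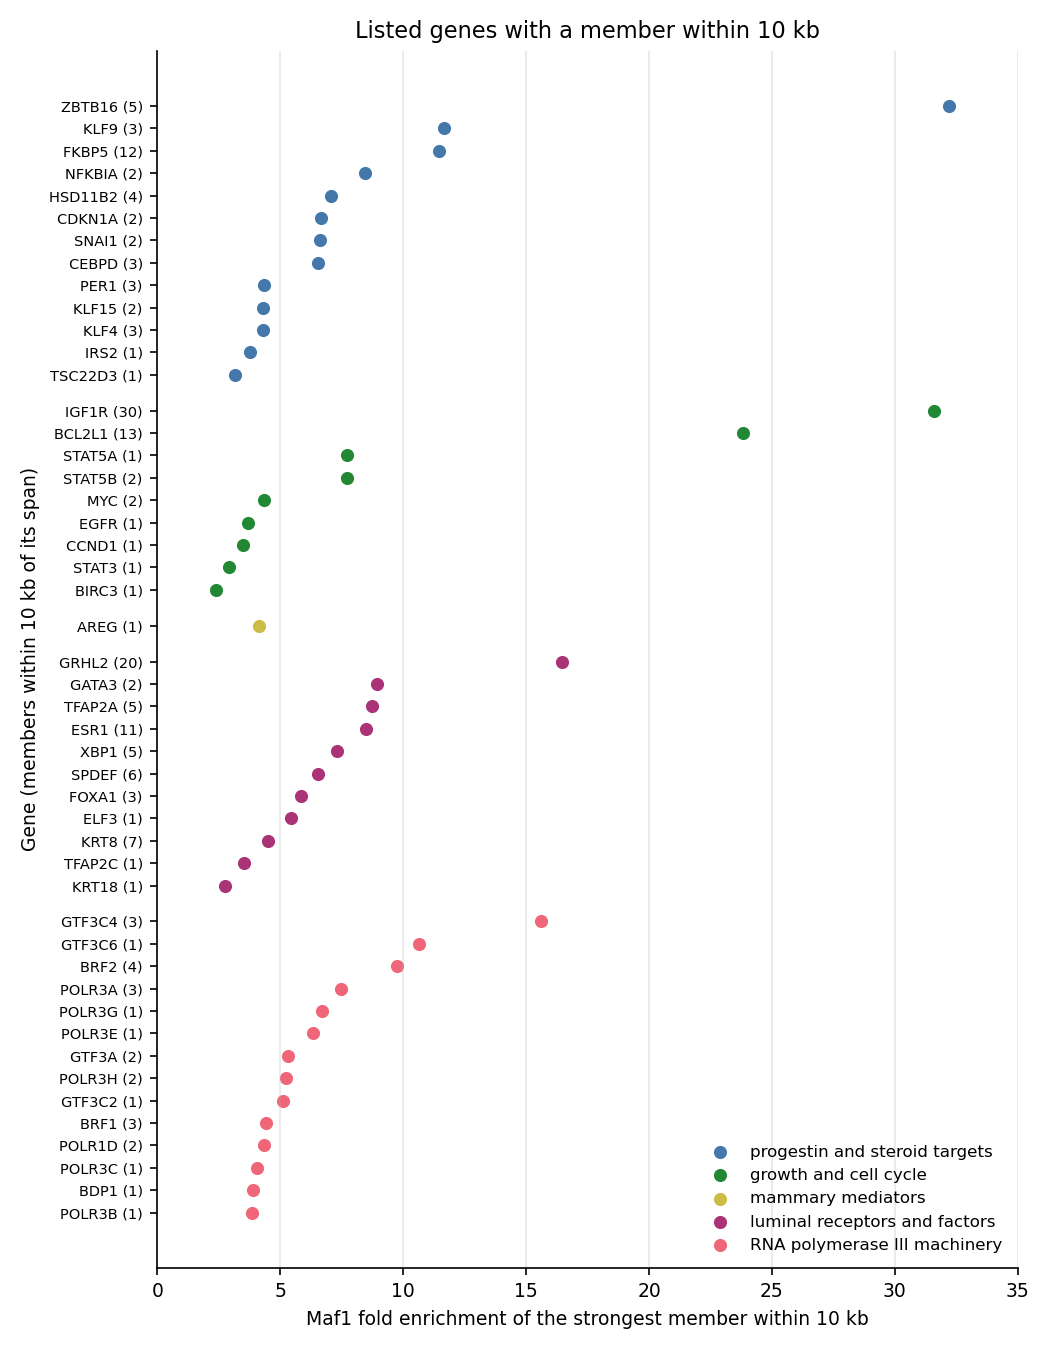
Maf1 fold enrichment (x axis) of the strongest member within 10 kb of each listed gene that had one (y axis, number of members in brackets), coloured by gene list; single points, with no error since there is 1 list. ZBTB16 (32.2) and IGF1R (31.6) stand highest, and the Pol III genes run from 3.85 to 15.6.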

How the data were processed

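The values came from 16 deposited region lists in narrowPeak layout, 1 per antibody and treatment, each standing for 3 libraries. The columns used, as deposited, are the fold (a ratio of enrichment at the summit), the −log10 q-value and the summit. Per the submitters' processing notes cutadapt, Bowtie2 and MACS2 were used with hg38; versions, settings, controls and how replicates were combined are not given in the sources used here. Whether replicates were separate cultures is not stated. Depth per sample is unknown.

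Lists were joined by a shared base (1 bp) with Python 3.11.15, numpy 2.4.6 and pandas 2.3.3, and the overlap and interval code was tested on simulated data. Samples were grouped by title. Folds were used only within a list. Genes, tRNA genes and promoter windows came from RefSeq tables of GRCh38.p14. Only the region lists and these tables were used. The members, gene lists and motifs were chosen with earlier results of these data known, and the split by PR decile after seeing values. Named loci are the 10 members of highest Maf1 −log10 q, the 8 of highest POLR3A fold, the 5 of highest Brf1 fold, the 5 tRNA genes of highest Maf1 fold, listed genes within 10 kb, the 5 genes with most members, and the regions at the limits. Sequences are from promoter windows with a member's summit: the 5 of highest Maf1 −log10 q among those with top-decile PR and the core upstream of the start site, and the 2 of highest Maf1 −log10 q on PR deciles 1 to 8 with the summit well upstream of the start site, all at protein-coding genes. Summit sequences were not analysed, since no genome was used. Alternatives were stricter thresholds, wider gaps, 50% sharing, equal PR numbers and the choices added later. Some loci that the rule for names would include are not reported here.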

Additional observations from a re-analysis of the deposited data

How the results depend on the processing

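Of 67 alternative values, 29 stayed within the limits set for them, 37 moved and 1 reversed. With 50% of both regions shared the core motif difference between members and hormone-only regions without PR reversed, to -1.13 points. Under that choice the members numbered 3860, with H3K27Ac at 84.5% with vehicle and 90.6% with R5020, differences of 19.7 and -12.9 points, Brf1 at 2.56%, POLR3A at 0.803%, gene ends at 43.4% and a core difference between strong and weak PR of 10.6 points. With Maf1 −log10 q of at least 5 the values were 72.7% and 81.0% H3K27Ac, a difference of 20.7 points, Brf1 1.71%, gene ends 26.4% and a start-site difference of 56.8 points. With PR −log10 q of at least 5 they were 72.5% and 79.6% H3K27Ac, differences of 22.8 and -24.7 points and gene ends 28.6%. With no vehicle Maf1 region within 1 kb vehicle H3K27Ac was 72.8%. With equal numbers of PR regions the members numbered 6764, with H3K27Ac at 66.0% and 78.9%, differences of 6.44 and -31.9 points, Brf1 1.83%, POLR3A 0.251%, gene ends 10.2%, a core difference of 8.47 points and a difference in new H3K27Ac of 25.0 points. In that choice the many PR regions dropped from the list place their Maf1 regions in the class without PR. With 5 kb in place of 1 kb the gene-end share was 43.7%. Alternatives added after seeing the data gave, for Maf1 folds of 3 to 4.5, differences of 10.1 points in new H3K27Ac and 26.3 in R5020 H3K27Ac, over 1 kb from a start site 33.6 in R5020 H3K27Ac, and at the Maf1 summit base 11.3 and 25.6. Apart from the reversal, all differences kept their sign under the alternatives run, but with Maf1 −log10 q of at least 5, and with no vehicle Maf1 within 1 kb, the interval of the core difference between members and regions without PR included 0. The cause of the other moves was not tested.

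No paired analysis was possible because the lists carry no replicate columns, and for the same reason no replicate was left out. Windows around summits were not run without a genome, and equal PR numbers gave no value for results split by PR decile. Unknown depth limits each absence, including absence from the vehicle Maf1 list of 3048 regions, on which the choice of members rests.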

Other observations

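Some members lay in groups along the chromosome. Joined when at most 10 kb apart, the 16461 members formed 11444 clusters, of which 8467 were single members (51.4% of all members). There were 206 clusters of 5 or more, with 1363 members. Of the members in these, 73.0% lay on the top PR decile, 13.3% at a start site and 91.1% on vehicle H3K27Ac, against 57.2%, 30.3% and 65.7% of single members. The cluster with most members lay in IGF1R (chromosome 15, 98852612 to 98881010): 19 members in 28.4 kb, all on the top PR decile, all with vehicle H3K27Ac and none at a listed start site. The next held 17 members at DLG5, a cell polarity scaffold gene (chromosome 10, 77855481 to 77896232), 15 at USP10, a deubiquitinase gene (chromosome 16, 84711293 to 84754576), 14 at MIDEAS and 13 at KIAA0232.

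By gene, most members within 10 kb were found at GSE1 (44 over a span of 507 kb, 9 on the top PR decile), then at IGF1R (30), ANKRD11 (25, of which 23 on the top decile and 7 with new H3K27Ac), DLG5 (21) and STARD13 (21). GSE1 differed from the other 4 in that few of its members lay on strong PR. By chromosome, the share of PR regions with a member ran from 6.30% on X to 14.2% on chromosome 19. These counts are values of single lists with no replicate error.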
